A study of Mus musculus with 3 samples.

Results

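The insulin-like growth factor (IGF) family examined here comprised 8 genes chosen by name: the ligands Igf1 and Igf2 and the binding proteins Igfbp2, Igfbp3, Igfbp4, Igfbp5, Igfbp6 and Igfbp7. All 8 were present among the 31053 genes of the count table. Single-cell RNA was measured with droplet-based 10x Genomics 3' chemistry in pancreatic islets of male C57Bl6/J retired breeders aged 7 to 8 months. The S961 library came from mice whose pumps had delivered S961, a peptide antagonist of the insulin receptor, for 2 weeks at a stated 20 nM per week. The recovered library came from S961-treated mice whose pumps had then been taken out, and the control library from mice whose pumps held no S961. Islets of every group were cultured overnight and dissociated with TrypLE. The labels give neither the length of recovery nor the number of mice behind a library. There was 1 library per group, so there were no replicates, no test between conditions was possible, and every difference below is one between libraries.

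IGF1 and IGF2 are secreted peptides that act mainly through the IGF1 receptor, a close relative of the insulin receptor. Binding proteins hold the ligands in blood and tissue, and proteases free the ligands by cutting them. IGFBP7 binds IGFs only weakly and is known from vessel walls and basement membrane. In most mouse tissues Igf2, an imprinted gene, is largely silent after birth, while Igf1 is made by liver and by many macrophages and mesenchymal cells.

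Igfbp3, Igfbp5 and Igfbp7 carried most of the family's RNA and were found in different cells, so the 250 bases before their RefSeq start sites are shown to place them. The genes lie at chr11:7206086-7213923 (Igfbp3), chr1:72857932-72874884 (Igfbp5) and chr5:77349240-77408041 (Igfbp7), all on the minus strand of GRCm38. The windows, read on the minus strand of GRCm38.p6, are chr11:7213924-7214173, chr1:72874866-72875115 and chr5:77408046-77408295 in the same order of genes. Capitals mark matches on either strand to the motif TATANA known from TATA boxes, the related motif TATTTAA, and the GC box core GGGCGG.
Igfbp3: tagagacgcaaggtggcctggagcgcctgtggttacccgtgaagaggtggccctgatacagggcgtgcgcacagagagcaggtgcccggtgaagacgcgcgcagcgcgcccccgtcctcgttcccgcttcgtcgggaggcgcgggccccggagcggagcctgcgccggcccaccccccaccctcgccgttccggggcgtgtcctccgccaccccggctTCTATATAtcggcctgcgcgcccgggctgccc
Igfbp5: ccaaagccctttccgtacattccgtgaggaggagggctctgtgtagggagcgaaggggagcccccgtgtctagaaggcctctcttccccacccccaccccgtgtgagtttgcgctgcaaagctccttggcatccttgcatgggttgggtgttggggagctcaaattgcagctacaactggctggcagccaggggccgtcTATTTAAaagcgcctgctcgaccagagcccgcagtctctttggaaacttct
Igfbp7: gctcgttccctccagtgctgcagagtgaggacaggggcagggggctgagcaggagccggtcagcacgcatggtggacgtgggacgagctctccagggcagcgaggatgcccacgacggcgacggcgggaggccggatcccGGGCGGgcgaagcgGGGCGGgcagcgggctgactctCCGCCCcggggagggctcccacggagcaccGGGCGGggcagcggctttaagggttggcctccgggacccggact
The Igfbp3 window held 3 overlapping TATANA matches, at -32 and, on both strands, at -30 from the start site. The Igfbp5 window held 1 TATTTAA match at -51, and the Igfbp7 window held 4 GGGCGG matches and neither of the other motifs. Of all 32851 mouse windows of this length, 22.6% held TATANA, 4.18% TATTTAA and 32.7% GGGCGG. GC content was 73.2% before Igfbp3, 58.8% before Igfbp5 and 74% before Igfbp7, against a median of 52.4% over all windows. These matches describe letters and do not show that a factor binds. Igfbp2 and Igfbp5 are neighbours on chromosome 1, in opposite orientation with 5457 bases between them. Igfbp7 overlaps Polr2b and Gm34648 on the other strand. The strand setting of the authors' counting is not given in the sources used here. Over the 3 libraries Polr2b stood at 34.6 CPM in beta-like, 55.6 CPM in delta-like, 46.1 CPM in endothelial-like and 43.7 CPM in stromal-like cells (CPM are UMIs per 1000000 UMIs of a class).

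The S961 library held 47651767 unique molecular identifiers (UMIs, 1 per captured RNA molecule) over 5905 barcodes, the recovered library 40102058 over 7805 and the control library 38265969 over 10880. After filters, 3430 S961, 3513 recovered and 4267 control cells remained, whose median depths were 9944, 8577 and 6501 UMIs. Only 3 of 4270 control cells were called doublets, against 77 of 3507 S961 and 24 of 3537 recovered cells, so doublets were nearly unremoved in control. Among analysed cells 13 barcode sequences occurred in 2 libraries. Cells were clustered without the IGF family and axis genes and named from markers, hence "-like". The endothelial-like class held 214 S961, 81 recovered and 154 control cells, and the stromal-like class 206, 51 and 94. The markers below gave the classes their names, so they are no separate check of them. All 9 endothelial markers were detected in the endothelial-like cells of each library, with a summed level of 14596, 14321 and 12411 CPM. Detection alone does not set the class apart, since all 9 were also detected in S961 beta-like cells, at a summed 7.19 CPM. All 8 stellate or pericyte markers and all 7 fibroblast markers were detected in the stromal-like cells of each library. Insulin RNA made up 1.38% of stromal-like UMIs in S961, 2.79% in recovered and 10.4% in control, and 0.753%, 1.53% and 5.29% of endothelial-like UMIs.

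A level below is a CPM value, the gene's UMIs per 1000000 UMIs of a cell class in a library. Log2 ratios are between CPM values of 2 libraries, with exact conditional binomial 95% intervals that cover counting error only. A gene counted as measured in a class when both libraries of a comparison together gave it 50 UMIs or more, and passed the threshold at a ratio of at least 1.5-fold. For a class total, fewer cells that make a gene and less of its RNA per cell cannot be told apart.

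RNA of the ligands was scarce. Igf2 gave 7 UMIs in all analysed cells, 5 of them in beta-like cells and 2 in cells whose clusters were led by processed pseudogenes. In beta-like cells Igf2 stood at 0.0492 CPM in S961, 0.134 CPM in recovered and 0.0444 CPM in control, each from at most 3 UMIs. Igf2 lies at chr7:142650766-142666816 and overlaps Gm49394 on the same strand and Igf2os on the other. Those genes also gave at most 2 UMIs in any library, so RNA counted under their names would not change this.

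Igf1, the main postnatal ligand, was found mostly in macrophage-like cells, which held 124 of its 201 UMIs. Its level there was 147.6 CPM in S961 (95% interval 119.5 to 180.2, 96 UMIs), 306.1 CPM in recovered (184.3 to 478.1, 19 UMIs) and 120.8 CPM in control (55.3 to 229.4, 9 UMIs). An Igf1 UMI was present in 23.5% of 81 S961, 22.2% of 18 recovered and 22.7% of 22 control macrophage-like cells, so the share of cells was alike while the recovered level rested on 4 cells. Stromal-like cells held 10.2 CPM in S961, 41.2 CPM in recovered and 13.2 CPM in control, from 17, 13 and 4 UMIs. Acinar-like cells, which make digestive enzymes, held 11.5 CPM of Igf1 in S961, 13.8 CPM in recovered and 19.7 CPM in control, from 28, 4 and 1 UMIs. No beta-like cell of any library held an Igf1 UMI, which allows at most 0.148 CPM in S961.

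**Figure D1:**
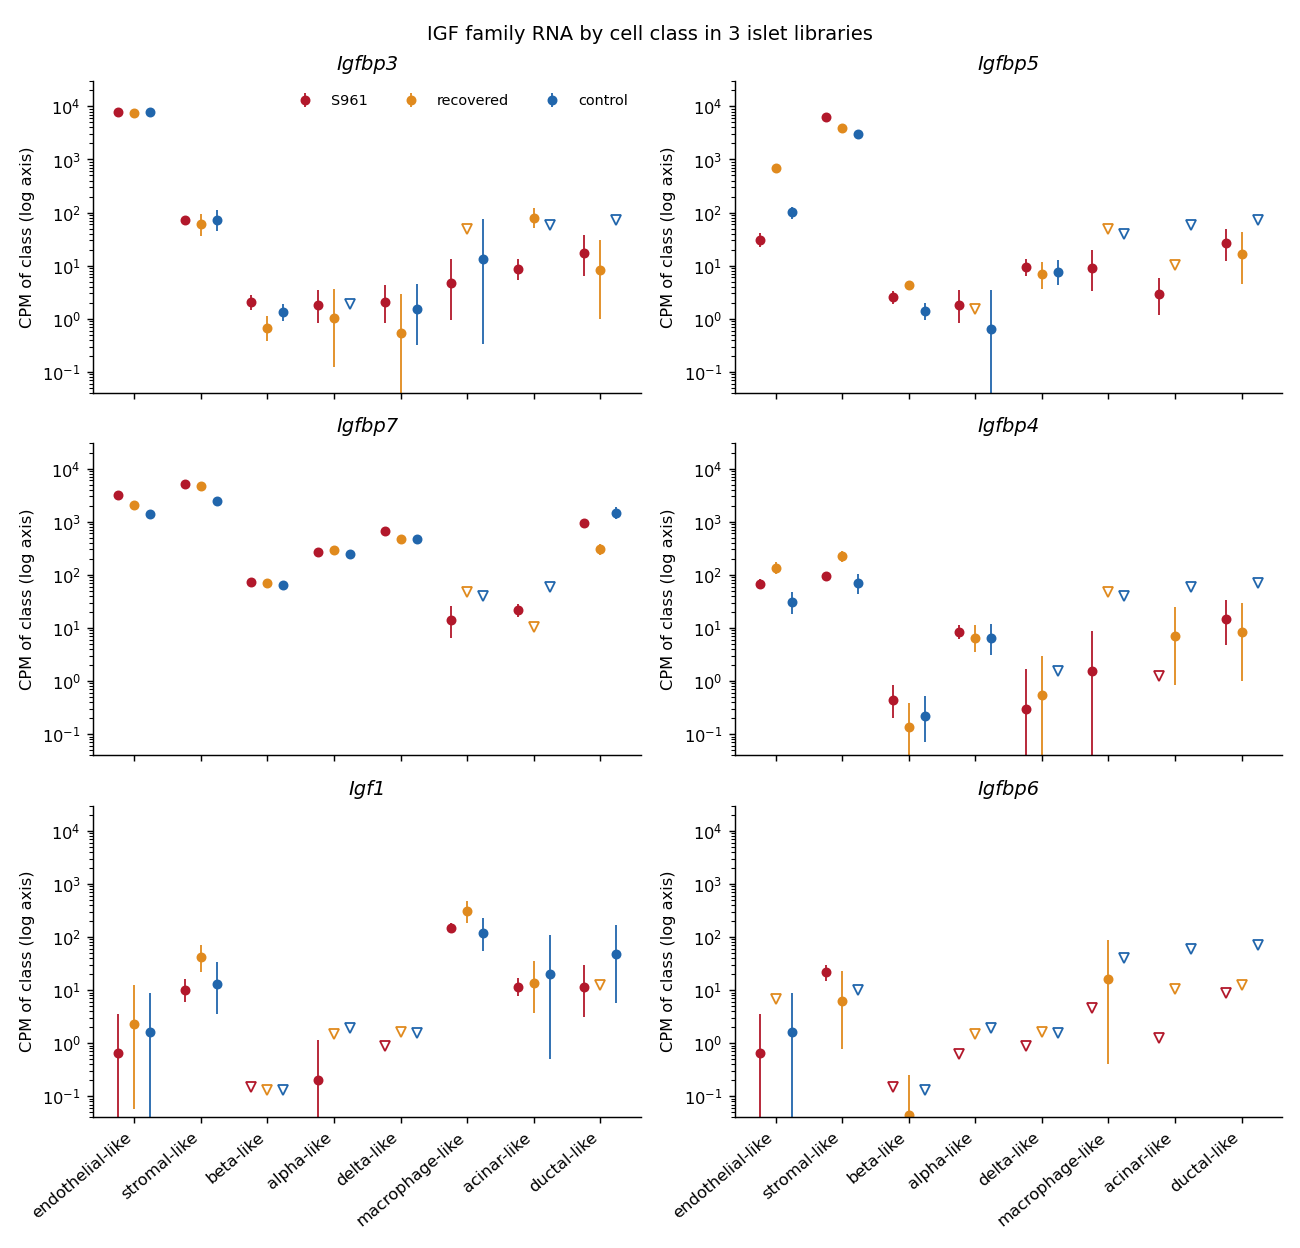
Level of 6 family genes in each cell class (CPM, log axis) in the S961, recovered and control libraries. Points are 1 library each with exact Poisson 95% intervals, and open triangles mark the limit that a count of 0 allows (3 UMIs). Igfbp3 stands at 7974, 7456 and 7858 CPM in endothelial-like cells, and Igfbp7 appears in every class of endocrine cell.

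Igfbp3, the main IGF carrier of blood, was an endothelial transcript here: endothelial-like cells held 98% of its 21064 UMIs. Its level in them was 7974 CPM in S961 (7834 to 8115), 7456 CPM in recovered (7203 to 7715) and 7858 CPM in control (7641 to 8081). An endothelial-like cell held a median of 42 Igfbp3 UMIs in S961, 27 in recovered and 20.5 in control, at medians of 6042, 4306 and 3261 UMIs per cell. Scaled to depth, the 3 libraries were close to one another. The log2 ratio was 0.02 for S961 over control (-0.03 to 0.07), -0.08 for recovered over control (-0.14 to -0.01) and -0.10 for recovered over S961 (-0.15 to -0.04). None passed the threshold.

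Outside the vessels Igfbp3 was low. Stromal-like cells held 73.1 CPM in S961, 60.2 CPM in recovered and 72.4 CPM in control. Beta-like cells held 2.07 CPM in S961 (42 UMIs), 0.67 CPM in recovered (15 UMIs) and 1.33 CPM in control (30 UMIs). Scaling the endothelial marker UMIs of beta-like cells by the ratio of Igfbp3 to markers in endothelial-like cells gave 79.8, 47.4 and 50.02 Igfbp3 UMIs. The counts were 0.527, 0.317 and 0.6 times those numbers. Carried RNA cannot exceed what was counted, so the scaling overshot here. It is only a rough scale, also where it is used for Igfbp4, Igfbp5 and Igfbp7 below. The beta-like log2 ratio passed the threshold for S961 over control (0.63, -0.08 to 1.36) and for recovered over S961 (-1.63, -2.58 to -0.75). The part of carried endothelial RNA in these ratios was not tested.

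Igfbp5, a matrix-bound binding protein made by mesenchymal cells, was a stromal transcript: stromal-like cells held 94.6% of its 13188 UMIs. Its level in them was 6187 CPM in S961 (6068 to 6307), 3907 CPM in recovered (3692 to 4131) and 3018 CPM in control (2826 to 3220). The 3 intervals did not overlap. The log2 ratio was 1.04 for S961 over control (0.94 to 1.13), 0.37 for recovered over control (0.25 to 0.50) and -0.66 for recovered over S961 (-0.75 to -0.58). An Igfbp5 UMI was found in 68% of S961, 51% of recovered and 61.7% of control stromal-like cells, and in 65.8%, 46.9% and 58.2% with each cell thinned to 2000 UMIs. Leaving hormone genes out of the totals lowered the stromal ratios of S961 over control by 0.18 for all genes alike, to 0.86 for Igfbp5. In cells with 4 to 7% mitochondrial UMIs the Igfbp5 ratio was 0.38 for S961 over control and -0.17 for recovered over S961, both short of the threshold.

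Igfbp7 was the family member with the widest reach. Its order of levels over the main classes was the same in each library: stromal-like, endothelial-like, delta-like, alpha-like and then beta-like cells, with intervals that did not overlap between neighbours. Stromal-like cells held 5234 CPM in S961 (5125 to 5345), 4743 CPM in recovered (4505 to 4989) and 2449 CPM in control (2276 to 2631). Endothelial-like cells held 3195 CPM in S961 (3107 to 3285), 2104 CPM in recovered (1971 to 2244) and 1384 CPM in control (1294 to 1479). In both classes S961 was highest and control lowest, and no 2 libraries overlapped. The endothelial log2 ratio was 1.21 for S961 over control (1.10 to 1.31), 0.60 for recovered over control (0.47 to 0.74) and -0.60 for recovered over S961 (-0.70 to -0.50). The stromal log2 ratio was 1.10 for S961 over control (0.99 to 1.21), 0.95 for recovered over control (0.83 to 1.08) and -0.14 for recovered over S961 (-0.22 to -0.06). With the sub-clusters led by genes of other cell types left out, the first 2 stromal ratios were 0.18 and -0.04, both short of the threshold. The control cells kept were few, 15 in an Rgs5-led and 5 in a Lum-led sub-cluster. Recovered kept 13 cells of a sub-cluster found in no other library. The endothelial ratio of S961 over control stayed between 1.12 and 1.87 under all 13 processing alternatives. That of recovered over control, close to the threshold, passed it under 8 of 13, and that of recovered over S961 under 11, with -0.34 in cells with 4 to 7% mitochondrial UMIs. Ductal-like cells, few in number, held 928 CPM of Igfbp7 in S961 (18 cells), 301.9 CPM in recovered (20 cells) and 1466 CPM in control (7 cells).

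The hormone cells also carried Igfbp7. Delta-like cells, which make somatostatin, held 662 CPM in S961 (635 to 690), 477 CPM in recovered (447 to 510) and 463 CPM in control (433 to 494). Alpha-like cells, which make glucagon, held 264 CPM in S961 (250 to 279), 296 CPM in recovered (272 to 321) and 247 CPM in control (223 to 273). Beta-like cells held 74.6 CPM in S961 (70.9 to 78.4), 69.7 CPM in recovered (66.3 to 73.3) and 63 CPM in control (59.8 to 66.4). Delta-like cells of S961 stood above those of the other libraries, while alpha-like levels overlapped between S961 and both other libraries. The delta log2 ratio was 0.52 for S961 over control (0.40 to 0.63), 0.05 for recovered over control (-0.09 to 0.18) and -0.47 for recovered over S961 (-0.59 to -0.36), all short of the threshold. The beta log2 ratio was 0.24, 0.15 and -0.10 for the same comparisons.

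The share of cells with Igfbp7 stepped down from delta-like to alpha-like to beta-like cells. With each cell thinned to 2000 UMIs, an Igfbp7 UMI was found in 71.1% of S961, 62.2% of recovered and 59.8% of control delta-like cells. The alpha-like shares were 36.4%, 43.4% and 33.9%, and the beta-like shares 12.6%, 13.5% and 11.9%. In S961 acinar-like cells, digestive cells set beside them for background, the share was 3.88% (1.07 to 9.65), and 1 of 80 macrophage-like cells held one. Unthinned, the delta-like shares were 95.1%, 90.9% and 86.7% at medians of 9610, 6833 and 4494 UMIs per cell, and the S961 acinar-like share was 14%. Igfbp7 UMIs in delta-like cells were 86.7, 194 and 217 times the number that endothelial and stromal markers in those cells would bring along. In beta-like cells they were 19.4, 67.6 and 65.1 times that number, and in S961 acinar-like cells 1.91 times. A cluster led by Ppy, which encodes pancreatic polypeptide, lay mostly in the alpha-like class and held 126 CPM in S961, 205 CPM in recovered and 131 CPM in control. Without it the alpha-like level was 318, 333 and 307 CPM.

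**Figure D2:**
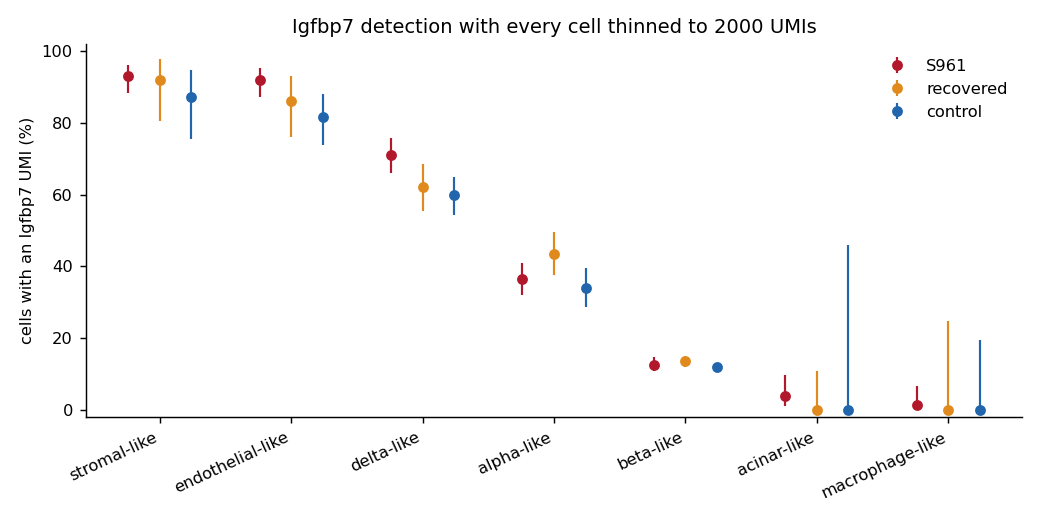
Share of cells with at least 1 Igfbp7 UMI (%) after thinning each cell to 2000 UMIs, by class, for the S961, recovered and control libraries, with exact binomial 95% intervals. Shares step down through stromal-like, endothelial-like, delta-like (71.1%, 62.2% and 59.8%), alpha-like and beta-like cells, and are lowest in acinar-like and macrophage-like cells.

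The stromal-like class is a mixture, and the libraries filled it differently. Its largest sub-cluster, led by Rgs5 and Abcc9 (stellate- or pericyte-like), held 106 S961, 12 recovered and 15 control cells. A sub-cluster led by Lum and Cilp (fibroblast-like) held 58, 10 and 5 cells. Most control stromal-like cells, 49 of 94, lay in a sub-cluster led by hormone RNA, which held 14 S961 and 9 recovered cells. In the Rgs5-led cells Igfbp5 stood at 16601 CPM in S961 (16257 to 16951), 15325 CPM in recovered (14147 to 16575) and 5729 CPM in control (4907 to 6649). S961 and recovered overlapped in these cells and control lay far below. The log2 ratio in the Rgs5-led cells was 1.53 for S961 over control (1.32 to 1.76), 1.42 for recovered over control (1.17 to 1.67) and -0.12 for recovered over S961 (-0.23 to 0.00). With hormone genes left out of the totals the first of these was 1.42. Insulin RNA made up 0.311% of the Rgs5-led UMIs in S961, 2.44% in recovered and 6.14% in control. In the Lum-led cells Igfbp5 was lower, at 1415 CPM in S961, 1828 CPM in recovered and 350 CPM in control, the last from 8 UMIs. The hormone-led sub-cluster, which held 728 of the 917 control Igfbp5 UMIs, ran in another order. Igfbp5 stood there at 3147.5 CPM in S961 (2839.8 to 3479.5), 9356 CPM in recovered (8500.2 to 10275) and 6199 CPM in control (5757 to 6666). S961 was lowest and recovered highest, and no 2 libraries overlapped. The log2 ratio in the hormone-led cells was -0.98 for S961 over control (-1.16 to -0.80), 0.59 for recovered over control (0.42 to 0.77) and 1.57 for recovered over S961 (1.37 to 1.77). Insulin RNA made up 16.6% of their UMIs in S961, 12.3% in recovered and 10.7% in control.

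The Igfbp7 ratio of S961 over control was above 0 in the Rgs5-led cells and below 0 in the Lum-led and hormone-led cells. Rgs5-led cells held 8769 CPM in S961 (8519 to 9024), 8926 CPM in recovered (8032 to 9891) and 4669 CPM in control (3930 to 5507), a log2 ratio of 0.91 for S961 over control (0.67 to 1.16). Lum-led cells held 4336 CPM in S961 (4192 to 4484), 5517 CPM in recovered (5047 to 6019) and 6347 CPM in control (5356 to 7468), a log2 ratio of -0.55 for S961 over control (-0.79 to -0.30). Hormone-led cells held 1903 CPM in S961 (1666 to 2165), 4144 CPM in recovered (3581 to 4769.9) and 3006 CPM in control (2700.3 to 3336). Their log2 ratio was -0.66 for S961 over control (-0.90 to -0.42), 0.46 for recovered over control (0.20 to 0.72) and 1.12 for recovered over S961 (0.84 to 1.40). The Lum-led control value came from 5 cells, and in cells with 4 to 7% mitochondrial UMIs the whole-class ratio of S961 over control was 0.32. A Sox2-led sub-cluster with glial genes, 19 S961 and 2 recovered cells, held no Igfbp5 UMI but 1866 CPM of Igfbp7 in S961. Within stromal-like cells thinned to 2000 UMIs, Igfbp5 and Igfbp7 ran together over cells, with a Spearman rho of 0.68 in S961 (n = 184), 0.50 in recovered (n = 49) and 0.64 in control (n = 55). These cells share a library and the mixture of sub-clusters just described.

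**Figure D3:**
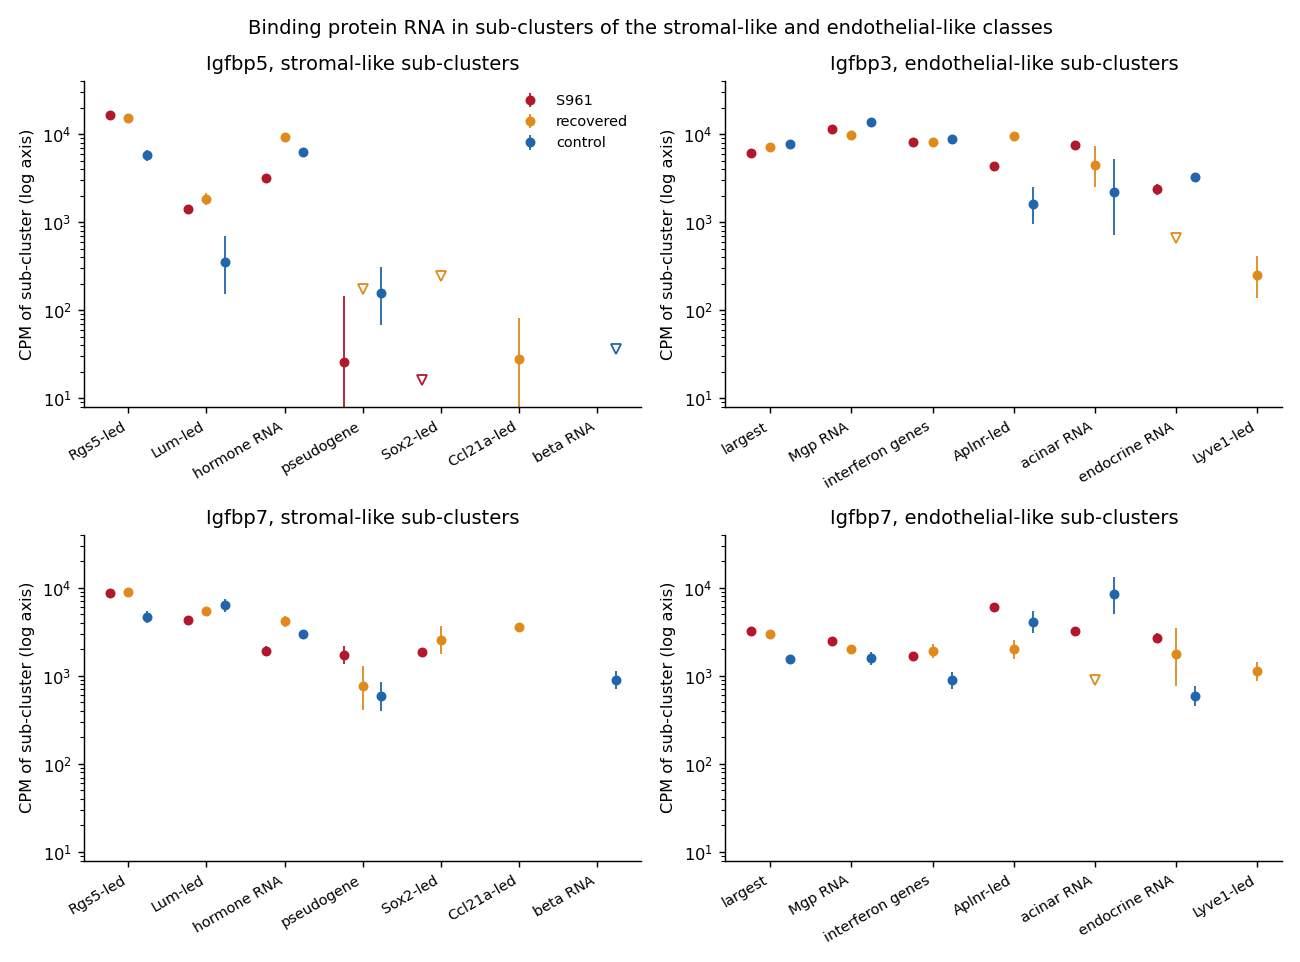
Igfbp5 and Igfbp7 in stromal-like sub-clusters (left) and Igfbp3 and Igfbp7 in endothelial-like sub-clusters (right), in CPM on a log axis, for the S961, recovered and control libraries. Bars are exact Poisson 95% intervals, open triangles are limits for a count of 0, and each sub-cluster is named by a leading gene or by the foreign RNA that leads it. Control lies below both other libraries for Igfbp5 in the Rgs5-led cells (5729 CPM) and for Igfbp7 in the largest endothelial-like sub-cluster (1558 CPM), while S961 lies lowest for both genes in the hormone-led stromal cells (3147.5 and 1903 CPM).

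Endothelial-like cells were mixed as well. The largest sub-cluster held 32 S961, 34 recovered and 106 control cells, and most control cells lay in it. There Igfbp7 stood at 3191 CPM in S961 (2888 to 3517), 2988 CPM in recovered (2671 to 3333) and 1558 CPM in control (1426 to 1698), a log2 ratio of 1.03 for S961 over control (0.84 to 1.22) and 0.94 for recovered over control (0.73 to 1.14). A sub-cluster led by interferon-induced genes such as Rsad2 and Ifit1 gave 0.90 (0.57 to 1.251) and 1.11 (0.70 to 1.52). In the sub-cluster led by Rgs5 and Mgp, with 70 S961, 20 recovered and 14 control cells, they were 0.64 (0.38 to 0.90) and 0.35 (0.06 to 0.65). Recovered over S961 gave -0.09 (-0.31 to 0.12) in the largest sub-cluster, short of the class ratio. It gave 0.20 (-0.09 to 0.48) in the interferon-led and -0.28 (-0.46 to -0.11) in the Rgs5- and Mgp-led sub-cluster. Among the S961 sub-clusters Igfbp7 was highest in one led by Aplnr and Col15a1, at 5997 CPM over 44 cells, where only 4 recovered and 2 control cells lay. Its ratio of recovered over S961 there was -1.59 (-1.97 to -1.24). Recovered over control gave -1.05 (-1.60 to -0.49) there, and S961 over control 0.54 (0.13 to 0.98). For Igfbp7, S961 over control was -1.39 (-2.06 to -0.65) in an acinar-led sub-cluster with 1 control cell. In an endocrine-led one it was 2.18 (1.76 to 2.62), and recovered over control 1.59 (0.31 to 2.66) from 1 recovered cell. Igfbp3 in the S961 cells of the Aplnr-led sub-cluster was lower, at 4355 CPM, against 6075 CPM in the largest S961 sub-cluster. Over single endothelial-like cells thinned to 2000 UMIs, the Spearman rho of Igfbp3 and Igfbp7 was -0.36 in S961 (n = 197). It was weak, at -0.18, in recovered (n = 72) and in control (n = 126). These cells also share a library and a mixture of sub-clusters. Inside the largest sub-cluster Igfbp3 stood at 6075 CPM in S961, 7155 CPM in recovered and 7713 CPM in control. The log2 ratio of S961 over control was -0.34 (-0.46 to -0.23), short of the threshold. It was -0.26 (-0.35 to -0.17) in the Rgs5- and Mgp-led, -0.10 (-0.22 to 0.01) in the interferon-led and -0.46 (-0.72 to -0.21) in an endocrine-led sub-cluster. In the Aplnr-led sub-cluster it was 1.45 (0.80 to 2.18), and in an acinar-led one with 1 control cell 1.76 (0.53 to 3.39).

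Igfbp5 in endothelial-like cells passed the threshold in every comparison but rested on very few cells. Its level was 30.8 CPM in S961 (48 UMIs), 690 CPM in recovered (305 UMIs) and 100.5 CPM in control (63 UMIs). The 2 cells richest in it held 91.7% of these UMIs in S961, 79.3% in recovered and 65.1% in control. Most of the recovered UMIs, 275 of 305, lay in a sub-cluster of 20 recovered cells led by stromal genes such as Rgs5 and Mgp. Summed stellate or pericyte markers in endothelial-like cells stood at 339.7 CPM in S961, 681 CPM in recovered and 381 CPM in control. The log2 ratio was -1.70 for S961 over control (-2.28 to -1.14), 2.78 for recovered over control (2.38 to 3.20) and 4.48 for recovered over S961 (4.04 to 4.96). Without cells that held markers of another class, recovered over control turned to -0.40, so no endothelial change of Igfbp5 is read from these values.

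Igfbp4, which the protease pregnancy-associated plasma protein A cuts, was spread over stromal-like and endothelial-like cells, with 252 and 184 of its 653 UMIs. Stromal-like cells held 95.8 CPM in S961 (81.6 to 111.9), 225 CPM in recovered (176 to 283.5) and 69.1 CPM in control (42.8 to 105.7). Endothelial-like cells held 68.1 CPM in S961 (55.7 to 82.3), 133.5 CPM in recovered (101.6 to 172.2) and 30.3 CPM in control (18.2 to 47.3). Recovered was highest in both classes, beyond the intervals of the other libraries. Recovered over control gave a log2 ratio of 1.70 in stromal-like (0.98 to 2.48) and 2.14 in endothelial-like cells (1.37 to 2.97), and recovered over S961 gave 1.23 (0.81 to 1.64) and 0.97 (0.49 to 1.44). S961 over control gave 0.47 in stromal-like cells (-0.19 to 1.203) and 1.17 in endothelial-like cells (0.45 to 1.96), which turned to -0.80 in cells with 4 to 7% mitochondrial UMIs. In those cells recovered over control was 0.57 in stromal-like cells, and with thinned cells recovered over S961 was 0.28 in endothelial-like cells.

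Where the recovered Igfbp4 UMIs lay bears on that difference. A sub-cluster with Lyve1, a gene of lymphatic vessels, and Dcn, a gene of fibroblasts, Tnc and C3 among its leading genes held 41 of the 59 endothelial UMIs in 9 cells, all of them recovered, at 680 CPM (488 to 922). Its summed fibroblast markers stood at 912 CPM. The other endothelial-like sub-clusters held at most 30.3 CPM in their recovered cells, and at most 7.21 CPM over all libraries. Its endothelial markers stood at 4758 CPM, the lowest of the sub-clusters in recovered. Over the whole class, fibroblast markers stood at 1.93 CPM in S961, 138 CPM in recovered and 0 CPM in control. A stromal sub-cluster led by Ccl21a and Il33 held 39 of the 71 stromal UMIs in 13 cells, again all recovered, at 365 CPM (259 to 499). In the stromal-like class fibroblast markers stood at 3866 CPM in S961, 9302 CPM in recovered and 2610.0 CPM in control. The part of fibroblast RNA in the Igfbp4 ratios was not tested. A cluster found in 1 library may be that library rather than a type. In the largest endothelial-like sub-cluster Igfbp4 gave 4 UMIs in S961, 0 in recovered and 12 in control. In S961 stromal-like cells 145 of 160 Igfbp4 UMIs lay in the Lum-led sub-cluster, at 183 CPM. Recovered Lum-led cells gave 32 Igfbp4 UMIs, and the 5 control ones gave 9. Within the Lum-led cells the log2 ratio was -1.10 for S961 over control (-2.07 to 0.05). For recovered over S961 it was 0.93 (0.32 to 1.49), and recovered over control had too few UMIs to be measured. Igfbp4 was also present in alpha-like cells, at 8.42 CPM in S961, 6.59 CPM in recovered and 6.38 CPM in control. That was 43.2, 31.2 and 48.8 times the number endothelial and stromal markers there would bring along, and the Ppy-led cells held none of it.

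Igfbp6, whose product prefers IGF2, was a rare stromal transcript. Stromal-like cells held 36 UMIs in S961 (21.6 CPM, 15.1 to 29.9), 2 in recovered and 0 in control, where a count of 0 allows up to 9.87 CPM. In S961 32 of these UMIs lay in Lum-led cells. The gene was below 50 UMIs in every comparison, so no ratio is given.

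Igfbp2 was confined almost wholly to cells led by processed pseudogenes, which held 53 of its 55 UMIs. All but 2 of the 53 lay in a single cluster of 99 S961, 99 recovered and 97 control cells, led by Calcb, Cartpt and pseudogenes and with Gcg among its leading genes. An Igfbp2 UMI was found in 16 of the S961, 8 of the recovered and 8 of the control cells of that cluster, at 57.2 CPM (38 to 82.6), 27.9 CPM and 56.7 CPM. The same cluster held Igfbp4 at 71.5 CPM in S961, 61.3 CPM in recovered and 61.1 CPM in control, and Igfbp7 at 509, 387 and 305 CPM. The part of the pseudogene counts in these values was not tested.

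Low-level Igfbp5 in beta-like and delta-like cells was seen in all libraries. Beta-like cells held 2.56 CPM in S961 (52 UMIs), 4.24 CPM in recovered (95 UMIs) and 1.38 CPM in control (31 UMIs). The log2 ratio was 0.89 for S961 over control (0.23 to 1.58), 1.62 for recovered over control (1.02 to 2.26) and 0.73 for recovered over S961 (0.23 to 1.246), and the last turned to -0.50 in cells with 4 to 7% mitochondrial UMIs. These counts were 0.95, 11.9 and 1.94 times what stromal markers in beta-like cells would bring along, and the part of carried stromal RNA was not tested. With each cell thinned to 2000 UMIs, 0.442% of S961, 0.949% of recovered and 0.291% of control beta-like cells held an Igfbp5 UMI. Alpha-like cells held 9 Igfbp5 UMIs in S961, 0 in recovered and 1 in control, and delta-like cells 9.53 CPM, 6.95 CPM and 7.69 CPM.

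Over the 5 compared classes, 14 pairs of family gene and class were measured for S961 over control. Of these 6 were at least 1.5-fold higher in S961 and 1 lower, against 9.88% higher and 3.16% lower of all gene and class pairs. For recovered over control 6 of 11 were higher and 0 lower, against 5.04% and 2.57% of all pairs. For recovered over S961 4 of 14 were higher and 3 lower, against 4.05% and 7.22%. These counts include Igfbp3 and Igfbp5 in beta-like cells and Igfbp5 in endothelial-like cells, whose levels stood beside the markers of other classes given above. Without those pairs 4 of 11 were higher and 0 lower for S961 over control, 4 of 9 and 0 for recovered over control, and 2 of 11 and 2 for recovered over S961. The pairs that remain carry the limits given above. For recovered over control, most Igfbp4 UMIs lay in sub-clusters found only in recovered. Stromal Igfbp7 gave -0.04 there, and 0.18 for S961 over control, without sub-clusters led by other cell types. Endothelial Igfbp7 of recovered over control passed under 8 of 13 alternatives. The S961 and recovered comparisons with control share the control library, and the 14 pairs rest on 4 genes, since Igf1, Igf2, Igfbp2 and Igfbp6 were too rare in these classes. In stromal-like cells the background was broader: 24.8% of all genes were higher and 6.8% lower in S961 than in control, where 2 of 4 family genes were higher and 0 lower, with a median log2 ratio of 0.75 for the family and 0.21 for all genes. In endothelial-like cells 9.59% of all genes were higher and 4.07% lower in S961 than in control, where 2 of 4 family genes were higher and 1 lower, with medians of 0.59 and 0.10. For recovered over control in endothelial-like cells, 3 of 4 family genes were higher and 0 lower, against 7.7% and 4.31% of all genes, with medians of 1.37 and 0.08. In stromal-like cells 2 of 3 were higher and 0 lower for that comparison, against 18.6% and 9.49%, with medians of 0.95 and 0.10.

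**Figure D4:**
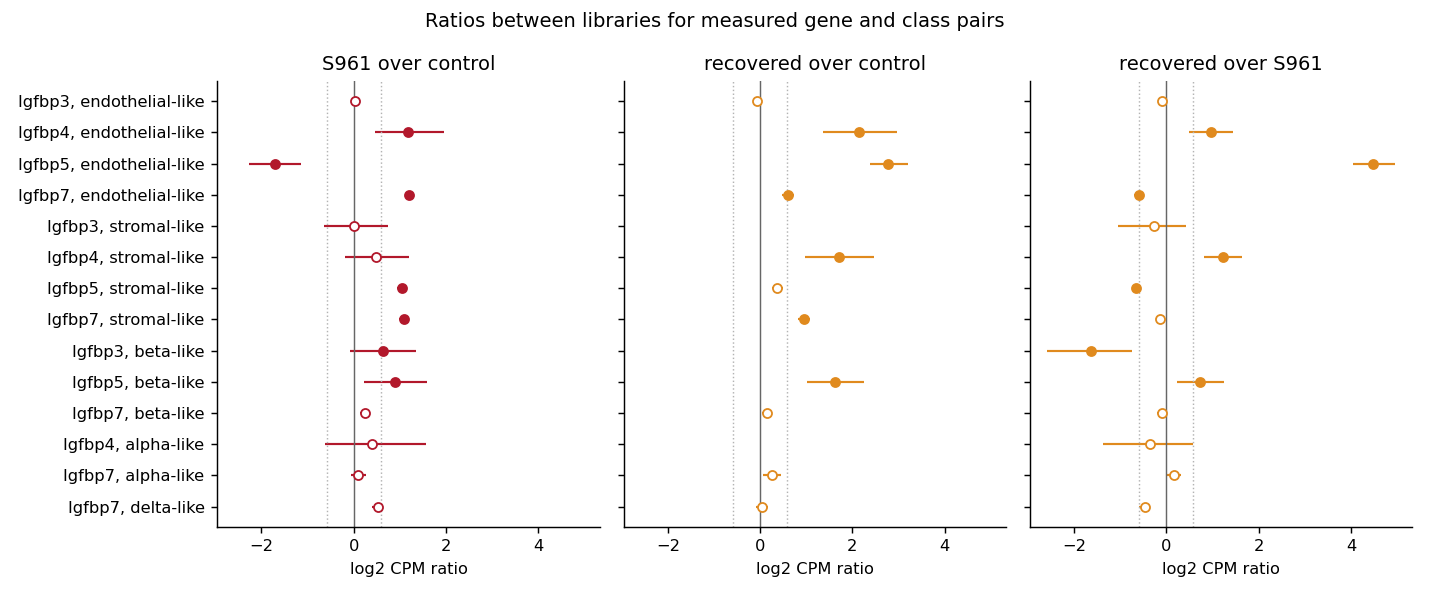
Log2 CPM ratios for S961 over control, recovered over control and recovered over S961 for each measured pair of family gene and class, with exact 95% counting intervals. Filled points are at least 1.5-fold apart (dotted lines). Igfbp3 in endothelial-like cells lies at 0.02, -0.08 and -0.10, while Igfbp7 there lies at 1.21, 0.60 and -0.60.

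Other genes of the IGF axis, 18 receptors, proteases and partners, were summarised in the same way. Of the measured ones in endothelial-like cells 0 of 6 were higher and 2 lower for S961 over control, against 9.59% and 4.07% of all genes. In stromal-like cells 2 of 7 were higher and 3 lower, against 24.8% and 6.8% of all genes. Igf1r, the receptor for the ligands, stood in endothelial-like cells at 55.2 CPM in S961, 110.9 CPM in recovered and 121 CPM in control, and in stromal-like cells at 54.5, 44.3 and 115 CPM. Its log2 ratio of S961 over control was -1.13 in endothelial-like (-1.60 to -0.67) and -1.08 in stromal-like cells (-1.66 to -0.47). In delta-like cells it was -1.19 (-1.43 to -0.95) and in alpha-like cells -1.15 (-1.58 to -0.71). In beta-like cells, where the level was 277 CPM in S961, 321 CPM in recovered and 371 CPM in control, it was -0.42 and short of the threshold. Ghr, the growth hormone receptor, also fell in endothelial-like cells to 34 CPM in S961 and 43 CPM in recovered, against 84.5 CPM in control. Beta-like cells held 154 CPM of Ghr in S961, 170 CPM in recovered and 143 CPM in control. Insulin RNA, the mark of beta-cell RNA, likewise stood lower in these S961 cells than in control ones: beside the endothelial-like and stromal-like shares given above, it made up 0.749% of delta-like UMIs in S961, 7.83% in recovered and 8.0% in control, against 32.6%, 31.1% and 30.7% in beta-like cells. The part of beta-cell RNA in the Igf1r and Ghr ratios was not tested. Htra1, a protease that cuts binding proteins, stood in stromal-like cells at 144 CPM in S961, 174 CPM in recovered and 56 CPM in control. Pappa2, which cuts IGFBP5 and IGFBP3, stood in beta-like cells at 89.1 CPM in S961, 58.9 CPM in recovered and 50.1 CPM in control, and its log2 ratio of S961 over control was 0.83 (0.72 to 0.94). In beta-like cells 2 of 9 axis genes were higher and 0 lower for that comparison, against 6.62% and 2.24% of all genes.

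The genes most like each member over 27 sums of class and library were named by Pearson's r of log levels. They were Flt1, Mcam and Plscr2 for Igfbp3 (r from 0.977 to 0.982), and Rgs5, Rarres2 and Ndufa4l2 for Igfbp5 (0.973 to 0.990). For Igfbp4 they were Hic1, F2r and Iigp1 (0.907 to 0.923), and for Igfbp7 Ubr1, Epn2 and Rab2a (0.918 to 0.926). These sums share libraries and depth, and the values are descriptive.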

How the data were processed

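The deposited values are counts, UMIs of a gene in a barcode, and per the submitters' processing notes they were made with Cell Ranger (version not given there) on build mm10. Barcodes were assigned to libraries by the suffix the labels give. Of 31053 symbols 30464 matched GENCODE M21, the source of gene coordinates. Promoter windows come from RefSeq on GRCm38.p6.

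Analysed cells had 500 or more detected genes and no more than 20% mitochondrial UMIs. Scrublet, run per library in scanpy 1.11.5 with an expected rate of 0.06, marked doublets, which were removed. Cells were clustered with leidenalg 0.10.2 at resolution 0.5 on 2000 variable genes and 30 principal components, with the 8 family genes and the other 18 axis genes left out. A cluster took the name of the marker set with the highest level relative to each marker's highest cluster, if at least 3 of its markers were detected. Clusters with a processed pseudogene among 20 leading genes were kept apart, and a cluster of 459 S961, 45 recovered and 61 control cells stayed unnamed because its S961 median of 3255 UMIs was low (0.327 of the library's). Both rules were set after the clusters were seen. Numpy 2.4.6, scipy 1.17.1 and matplotlib 3.10.9 were used on Python 3.11.15.

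Counts were summed over cells per class and library, scaled to CPM and compared as log2 ratios, with 3 UMIs in place of a count of 0. Shares and levels carry exact 95% intervals, limited to counting error. No p-value was computed, since each group had 1 library. The ratio step was tested on simulated counts. The members, the 8 family genes, were named throughout, and axis genes where they held at least 100 UMIs in a class. H19 and Igfbp1 were named as well, though they fell below that number. The members and lists were chosen with earlier results of these data known.

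Alternatives were other count and fold thresholds, mitochondrial and gene filters, thinned cells, other totals, mean CPM per cell, other clusterings and classes without cells holding foreign markers. The 3 that redefine a class by its sub-clusters or add the unnamed low-depth cluster to beta-like cells, and the count without certain pairs of gene and class, were chosen after seeing the data.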

Additional observations from a re-analysis of the deposited data

How the results depend on the processing

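No paired analysis was possible because each group had 1 library and no test was made. Of 13 alternatives, 3 redefined a single class and could not change the ratios of other classes. Redefining the stromal-like class by its sub-clusters moved 7 ratios out of their counting intervals and reversed 1. Redefining the endothelial-like class moved 8. Over all 13 alternatives 412 of 507 ratios stayed within the counting interval of the value reported, 91 left it and 4 changed direction. Those 4 were Igfbp5 in beta-like cells for recovered over S961 (-0.50) and Igfbp4 in endothelial-like cells for S961 over control (-0.80), both in cells with 4 to 7% mitochondrial UMIs, Igfbp5 in endothelial-like cells for recovered over control without cells holding markers of another class (-0.40), and Igfbp7 in stromal-like cells for recovered over control without sub-clusters led by other cell types (-0.037). The cause was not tested. The number of gene and class pairs past the threshold was 7 for S961 over control, 6 for recovered over control and 7 for recovered over S961. At a minimum of 200 UMIs it was 3, 3 and 4, and with 4 to 7% mitochondrial UMIs 1, 3 and 2, where fewer pairs were measured. For recovered over S961 it was 3 at 2-fold, 4 at most 10% mitochondrial UMIs, 4 without cells holding markers of another class and 3 with thinned cells. Recovered over control gave 2 without cells holding foreign markers, and S961 over control 3 with thinned cells. Without Igfbp3 and Igfbp5 in beta-like and Igfbp5 in endothelial-like cells, chosen after seeing the data, it was 4, 4 and 4. For the other alternatives, neither the pairs measured nor the share of all gene and class pairs past the threshold is given here. Their counts therefore cannot be read against a background. Igf1, Igf2, Igfbp2 and Igfbp6 gave fewer than 50 UMIs in each comparison of the 5 classes, so no ratio of theirs was varied.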

Other observations

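Immune cells held little of the family apart from Igf1 in macrophage-like cells. T- or NK-like cells held 4 Igfbp4 UMIs in S961 (30 cells) and 20 in recovered (142 cells), a level of 49.6 CPM and 70.9 CPM, and 0 in the 3 control cells. In S961 1 cell held all 4, and in recovered 10 cells shared the 20. B-like cells held 23 Igfbp7 UMIs in S961 and 8 in recovered, in 6 of 24 and 3 of 85 cells.

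Stc1, an inhibitor of the proteases that cut IGFBP4, was present in both vessel and stromal classes. In endothelial-like cells it stood at 371 CPM in S961, 326 CPM in recovered and 346 CPM in control, and no log2 ratio passed the threshold. In stromal-like cells it stood at 299.5 CPM in S961, 139 CPM in recovered and 289.6 CPM in control. There the log2 ratio was -1.06 for recovered over control and -1.10 for recovered over S961, from 44 UMIs in recovered. H19, the imprinted neighbour of Igf2, gave 4 UMIs, all in S961 stromal-like cells. Igfbp1 gave 6 UMIs in S961, 1 in recovered and 1 in control, all in cells led by processed pseudogenes.

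An unnamed cluster of low depth, 459 of its cells in S961, 45 in recovered and 61 in control, held Igfbp7 at 79 CPM, 40.7 CPM and 86.5 CPM. Taking this cluster as beta-like moved no measured beta-like ratio out of its counting interval. The rest of the 39 ratios belong to other classes, which this alternative leaves as they were, so they say nothing about it.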
